A study of Mus musculus with 17 samples.

Results

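The mitochondrial ribosomal proteins were followed here at the RNA level in CD8 T cells of 4 differentiation states. The members were all probes whose annotated gene symbol begins with Mrpl or Mrps and a digit, without pseudogenes, and 1 probe, the brightest, stood for each gene. This rule gave 76 genes, 48 named for the large subunit and 28 for the small subunit, of 16462 named genes measured. They were annotated on 132 probes, of which 128 passed the filter on dim signals, and all 76 genes passed it. The study measured total RNA of T cells on Illumina mouse bead arrays in 17 samples, and its title sets a state called partial memory (Tpm) beside naive, effector and memory cells. All cells came from OT-I mice on the C57Bl/6 background, aged 2 to 6 months, whose transgenic T cell receptor recognises a peptide of ovalbumin. The groups therefore share a single antigen specificity. Naive cells (5 samples) were taken from spleen. LSEC-primed cells (4 samples) had been cocultured with LSEC, the liver sinusoidal endothelial cells that line the capillaries of the liver. Of these, 3 carried the cell type label CD8+ Tpm and sample 4 the label CD8+ LSEC-primed T cells. Effector cells (Teff, 5 samples) had been activated in coculture with splenic dendritic cells, although sample 8 gives spleen as its source. Memory cells (3 samples) also came from spleen, 3 months after mice were infected with Listeria monocytogenes that carried ovalbumin. No label tells whether replicates stem from different mice or culture dishes. The p-values below therefore cover only the spread among these samples, which may be technical.

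Mitochondria translate the few proteins encoded in their own DNA, all of them subunits of the respiratory chain or the ATP synthase, on ribosomes of their own. The RNAs of that ribosome come from mitochondrial DNA, but every protein of it is encoded in the nucleus, made in the cytosol and imported. Many of these proteins descend from bacterial ribosomal proteins and carry the matching number, and others exist only in mitochondria. The large subunit joins amino acids and the small subunit reads the messenger RNA. T cells that leave the resting state grow, divide and enlarge their mitochondria, and mitochondrial translation is known to be needed for a full effector response.

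Depth on an array shows as brightness over background. Mean intensity lay between 227 and 471 on 15 arrays, but was 140 on memory sample 3 and 96.7 on memory sample 5. On memory sample 5 only 15.4% of probes exceeded the background level, which was set for each array from the lower side of its intensities, against 25.9% to 32.7% on the other arrays. These arrays are called the 2 dim memory arrays below. Correlations between arrays of 1 group ran from 0.936 to 0.9896 and no 2 arrays were identical. The T cell markers Cd8b1, Cd3d, Cd3e, Cd3g and Cd2 were above background on all 17 arrays, while the probe for Cd8a was above it on 1 LSEC-primed array only. The summed intensity of 12 LSEC markers was 4840 to 8094 on the LSEC-primed arrays, 924 to 1270 on naive, 1831 to 2334 on effector and 822 to 2269 on memory arrays. On the LSEC-primed arrays 8 of these 12, Lyve1 among them, were above background throughout. Among the 8, Stab1 and Pecam1 were also above it on all naive and effector arrays, and Egfl7 and Igfbp7 on all effector arrays. Stab1 had a higher mean log2 level in effector (9.46) than in LSEC-primed cells (7.88), and Pecam1 in naive (8.48) than in LSEC-primed cells (7.94). Stab2 was above it on 3 of 4 LSEC-primed arrays, Tek on 1, and Clec4g and Kdr on none. Haemoglobin and other erythroid markers (5 measured) summed to 6331 to 35529 in naive and 6211 to 15475 in memory samples, both from spleen, against 296 to 328 in LSEC-primed and 293 to 321 in effector samples. Markers of stellate cells and fibroblasts (7 measured) summed to 1066 to 1966 on LSEC-primed arrays. Other arrays gave 452 to 459 (naive), 436 to 468 (effector) and 452 to 686 (memory). Of 5 dendritic cell markers measured, H2-Ab1 had a mean log2 level of 11.08 in effector cells, against 8.65 to 8.86 in the other groups. H2-Aa was lower in effector cells, at 6.26, and Itgax, Flt3 and Zbtb46 were above background on no effector array. The 5 summed to 1877 to 3020 on effector, 542 to 4601 on LSEC-primed, 505 to 2266 on naive and 691 to 2513 on memory arrays. Macrophage markers (5 measured) summed to 372 to 3195 on LSEC-primed, 395 to 1122 on naive and 385 to 695 on memory arrays. On effector arrays they summed to 316 to 331, and none was above background. The part of these other cells in the differences below was not tested. In RNA from bulk samples, fewer cells of a type and less RNA per cell cannot be told apart.

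Mitochondrial ribosomal protein RNA was higher in effector and LSEC-primed cells than in naive and memory cells. Effector and LSEC-primed cells came from coculture (effector sample 8 is labelled spleen), and naive and memory cells came from spleen. Differentiation state and culture therefore cannot be told apart in this contrast. The median log2 intensity over the 76 genes was 8.58, 8.78, 8.47, 8.73 and 8.78 in naive samples 1, 2, 11, 12 and 13. It was 9.40, 9.20, 9.40, 9.34 and 9.47 in effector samples 6, 8, 10, 16 and 17, and 9.41, 9.12, 9.02 and 9.36 in LSEC-primed samples 4, 7, 14 and 15. Memory samples 3, 5 and 9 read 8.81, 8.92 and 8.58. Every effector and LSEC-primed sample thus lay above every naive and memory sample, the effector and LSEC-primed ranges overlapped, and so did those of naive and memory cells. The group means were 8.67 ± 0.14 (SD, n = 5) for naive, 9.23 ± 0.19 (SD, n = 4) for LSEC-primed, 9.36 ± 0.10 (SD, n = 5) for effector and 8.77 ± 0.17 (SD, n = 3) for memory cells. In all lists of values that follow, samples stand in this order, and values are log2 of background-corrected, quantile-normalised intensity unless another scale is named.

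**Figure D1:**
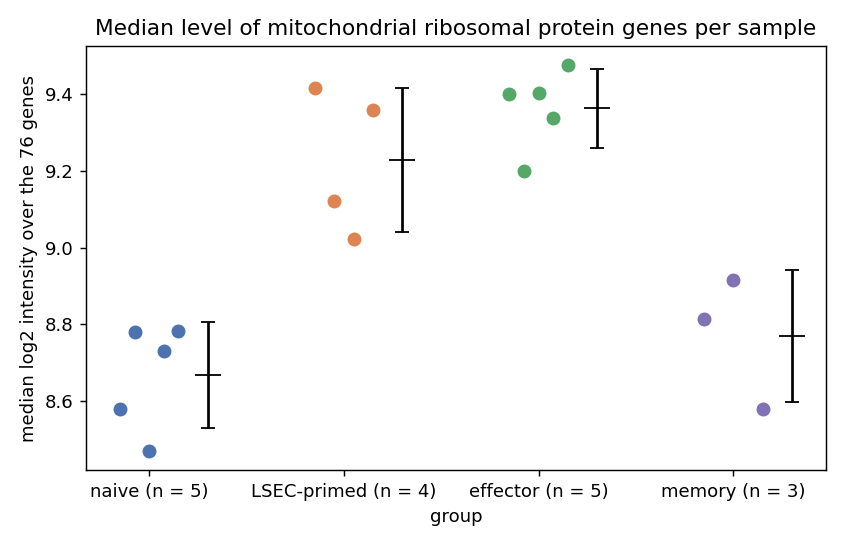
Median log2 intensity over the 76 mitochondrial ribosomal protein genes in each of the 17 samples, by group. Points are samples, and the bars beside them show the group mean and SD; the effector and LSEC-primed points all lie above the naive and memory points.

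Of the 76 genes, 57 were above the background level on all 17 arrays. On memory sample 5 alone 57 were above it, against 68 to 71 on each other array. Mrpl19, Mrpl32, Mrpl45 and Mrps14 were above it on none, with levels between 5.76 and 6.96 in all samples, so these probes carry no usable value. Mrpl45, the protein at the tunnel exit that holds the ribosome at the inner mitochondrial membrane, is among them. Mrpl57 was above background on 2 arrays, Mrpl51 on 6, Mrpl35 on 12, Mrps27 on 13 and Mrpl39 on 14. The median SD of a member between samples of 1 group was 0.19 in naive, 0.25 in LSEC-primed, 0.20 in effector and 0.26 in memory cells.

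**Figure D2:**
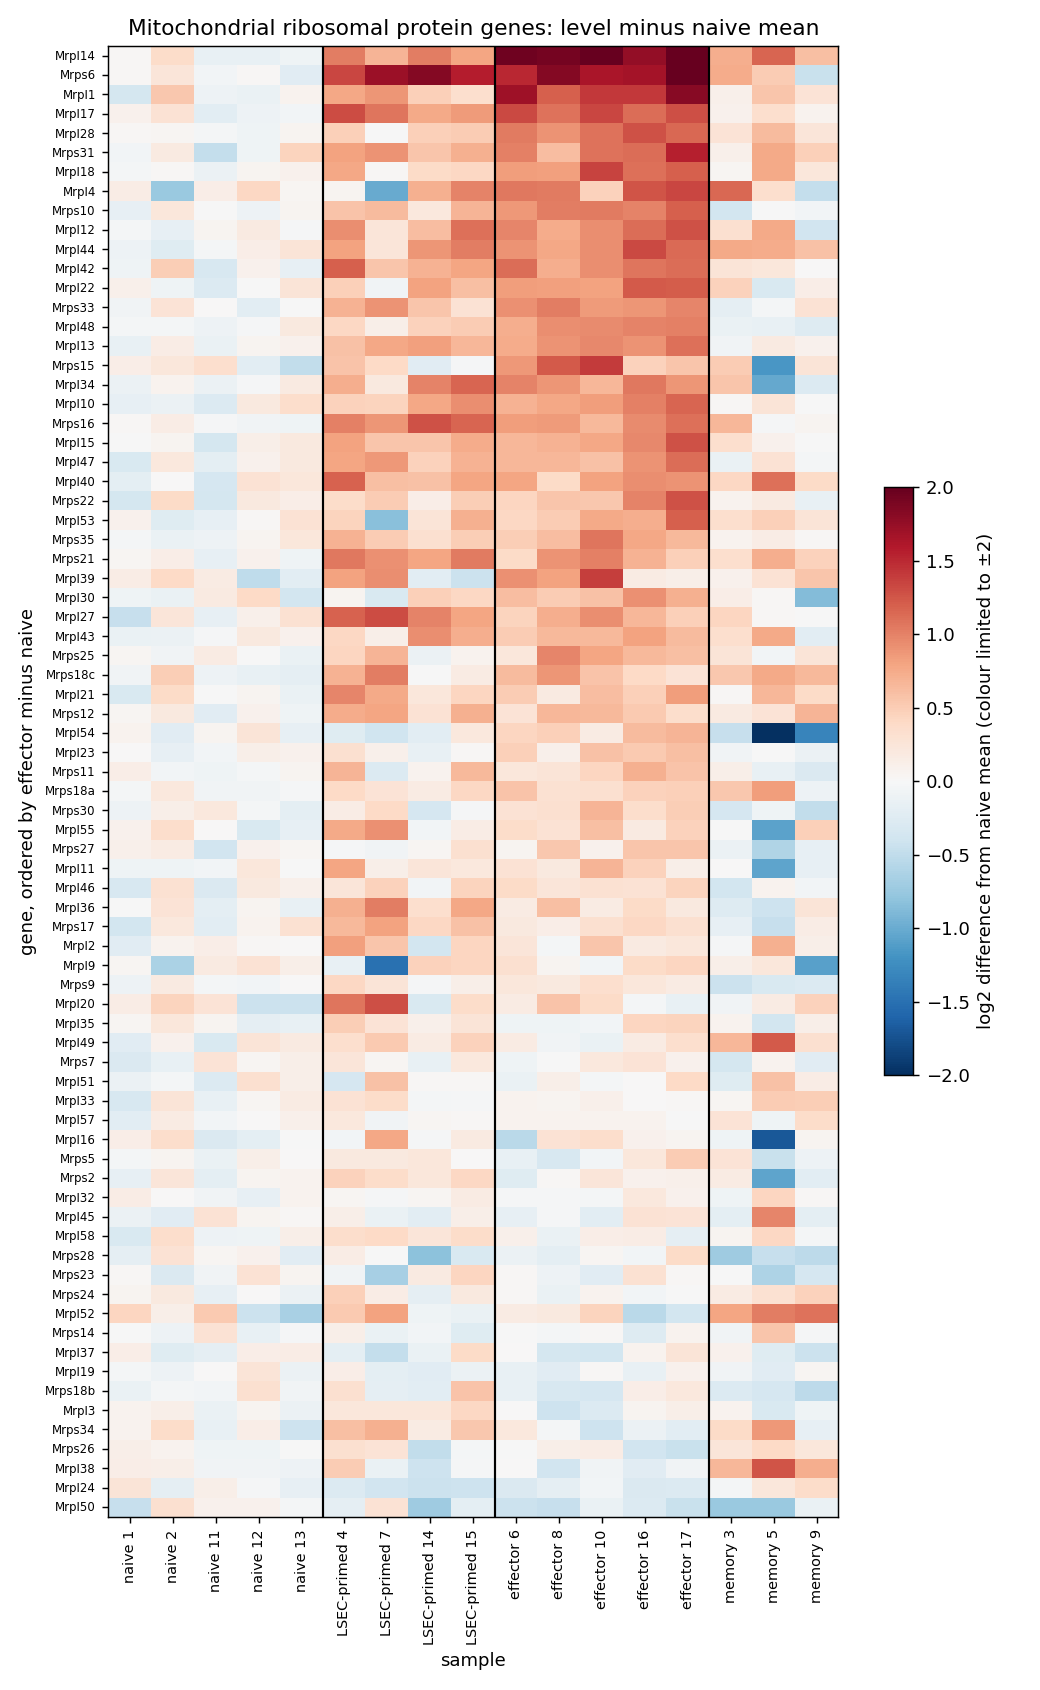
Log2 intensity of the 76 genes in each of the 17 samples, shown as the difference from the gene's mean over naive samples. Rows are genes, ordered by their effector minus naive difference, and columns are samples by group, with red for higher and blue for lower and the colour limited to ±2; most rows are on the higher side in the effector and LSEC-primed columns, and the memory columns are mixed.

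Promoter sequence was at hand for 67 of the 76 genes as RefSeq windows of GRCm38.p6, from 250 bases before to 50 bases after a gene's first listed start. The 250 bases upstream are shown for 4 of the genes named below, 3 of which hold a motif match. Mrps6 had the largest difference between LSEC-primed and naive cells, Mrpl27 and Mrps12 also rose there, and Mrps22 rose in effector over naive cells. Each is written 5′ to 3′ on the gene's strand, and capitals mark a motif match.
Mrps6, chr16:92058086-92058335, plus strand: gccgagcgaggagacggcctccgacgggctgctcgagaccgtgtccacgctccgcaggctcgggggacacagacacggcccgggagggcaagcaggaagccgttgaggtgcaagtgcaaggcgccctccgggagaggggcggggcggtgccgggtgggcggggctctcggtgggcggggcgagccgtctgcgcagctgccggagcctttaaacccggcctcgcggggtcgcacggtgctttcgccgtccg
Mrpl27, chr11:94653541-94653790, plus strand: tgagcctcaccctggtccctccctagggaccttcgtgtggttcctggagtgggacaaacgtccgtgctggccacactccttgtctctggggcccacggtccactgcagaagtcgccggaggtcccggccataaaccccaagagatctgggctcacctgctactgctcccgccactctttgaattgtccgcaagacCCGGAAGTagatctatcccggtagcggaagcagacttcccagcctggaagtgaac
Mrps12, chr7:28741822-28742071, minus strand: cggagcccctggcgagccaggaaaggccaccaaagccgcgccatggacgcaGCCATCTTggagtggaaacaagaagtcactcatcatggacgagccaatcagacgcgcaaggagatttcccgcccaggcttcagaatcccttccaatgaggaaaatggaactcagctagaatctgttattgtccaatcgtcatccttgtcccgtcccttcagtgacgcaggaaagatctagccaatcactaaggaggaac
Mrps22, chr9:98601680-98601929, minus strand: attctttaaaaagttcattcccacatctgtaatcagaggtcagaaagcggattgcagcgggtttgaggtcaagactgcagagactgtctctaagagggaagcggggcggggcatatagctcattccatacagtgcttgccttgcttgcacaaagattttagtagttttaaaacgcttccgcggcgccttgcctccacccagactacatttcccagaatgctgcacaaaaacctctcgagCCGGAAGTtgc
The motifs searched on both strands were the ETS core CCGGAAGT, the YY1 core AAGATGGC, the NRF1 palindrome (GCGCA followed by its reverse complement) and the E-box CACGTG, the site of Myc and its relatives. In capitals are an ETS match for Mrpl27 and Mrps22 and a YY1 match, read on the opposite strand as GCCATCTT, for Mrps12. The upstream stretch of Mrps6 holds none of the 4 motifs and has a GC content of 74.4%. Those of Mrpl14, Mrpl1, Mrpl17 and Mrps16, also among the largest rises below and not shown, hold none either. At least 1 motif occurred in the full window of 26 of 67 members. Over the full windows, the YY1 core occurred in 12 of 67 members (17.9%), against 6.29% of 3528 promoters of genes above background on all arrays and 2.88% of 27025 promoters in all. The ETS core occurred in 11 members (16.4%, against 11.4% and 4.0%), and the NRF1 palindrome in 3 (4.48%, against 2.15% and 0.977%). The E-box occurred in 5 (7.46%, against 11.6% and 7.24%). Among the 33 matched genes that rose in effector cells, 3 held the YY1 core, 5 the ETS core, 1 the E-box and none the NRF1 palindrome, against 9, 6, 4 and 3 of the 34 others. A match describes letters in the window and not binding.

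In effector over naive cells, 37 of the 76 genes were higher at an adjusted p under 0.05 (limma over all 23699 features, Benjamini-Hochberg), none was lower, and 39 did not pass. Whether called or not, 64 of 76 differences were above 0. Among all named genes 14.2% were called higher and 12.3% lower in this comparison. The median log2 difference was 0.43 over the members and -0.00 over all named genes, and 11 members differed by at least 2-fold. The groups did not overlap for 35 members, all higher, where 13.5% of named genes were free of overlap in that direction. Among the 57 members above background on all arrays 34 were higher and none lower, against 24.6% and 30.1% of the 4282 named genes that meet the same condition, which was added after seeing the data. With arrays scaled to a shared median, 24 members were called, all higher, at a median difference of 0.74. That scaling called 15.2% of all named genes in either direction.

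Mrpl14, a large subunit protein of bacterial type on the face that meets the small subunit, rose most. Its probe (ILMN_2734045) read 7.96, 8.31, 7.80, 7.80 and 7.85 in naive and 9.89, 9.85, 9.95, 9.70 and 9.96 in effector samples. LSEC-primed samples read 8.97, 8.63, 8.96 and 8.73, and memory samples 8.67, 9.10 and 8.55. The effector samples stood above all others, the naive samples below all others, and the LSEC-primed and memory ranges overlapped. The effector over naive difference was 1.93 (SE 0.12, adjusted p = 3.1e-09), a 3.8-fold rise. The LSEC-primed over naive difference was 0.88 (SE 0.13, adjusted p = 0.000119) and that of memory over naive 0.83 (SE 0.14, adjusted p = 0.000542), both against the same naive arrays.

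Mrps6, the small subunit relative of bacterial S6, read 8.47, 8.69, 8.39, 8.47 and 8.23 in naive and 9.96, 10.28, 10.08, 10.11 and 10.45 in effector samples. LSEC-primed samples read 9.78, 10.16, 10.29 and 10.02, and memory samples 9.19, 8.95 and 8.01. Every effector and LSEC-primed sample was above every naive and memory sample, and the memory samples spread over more than the whole naive range. Effector cells were higher than naive cells by 1.73 (SE 0.18, adjusted p = 1.03e-06) and LSEC-primed cells by 1.61 (SE 0.19, adjusted p = 1.54e-05), which is 3.31-fold and 3.06-fold. Memory cells differed from naive cells by 0.26 (SE 0.20, adjusted p = 0.468).

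Mrpl1, which forms the stalk that guides spent transfer RNA out of the ribosome, read 7.46, 8.36, 7.71, 7.68 and 7.89 in naive and 9.52, 9.01, 9.24, 9.23 and 9.64 in effector samples. LSEC-primed samples, at 8.59, 8.70, 8.30 and 8.16, lay between them and overlapped naive sample 2. The effector over naive difference was 1.51 (SE 0.16, adjusted p = 2.16e-06) and the LSEC-primed one 0.62 (SE 0.17, adjusted p = 0.0246). Leaving out LSEC-primed 4 or 7, or naive 1, 11 or 12, ended the LSEC-primed call (adjusted p of 0.0572 to 0.0848). A dimmer second probe of Mrpl1 gave 0.71 for effector cells, and the dimmest, above background on 1 array, gave -0.04. Mrpl17, a bacterial-type protein near the tunnel exit, read 9.16, 9.36, 8.86, 8.97 and 9.03 in naive samples and 10.39, 10.17, 10.41, 10.20 and 10.36 in effector samples. Its LSEC-primed samples read 10.38, 10.15, 9.83 and 9.93. Both cocultured groups were clear of the naive range, by 1.23 (SE 0.11, adjusted p = 2.57e-07) for effector and 1.00 (SE 0.12, adjusted p = 1.86e-05) for LSEC-primed cells.

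**Figure D3:**
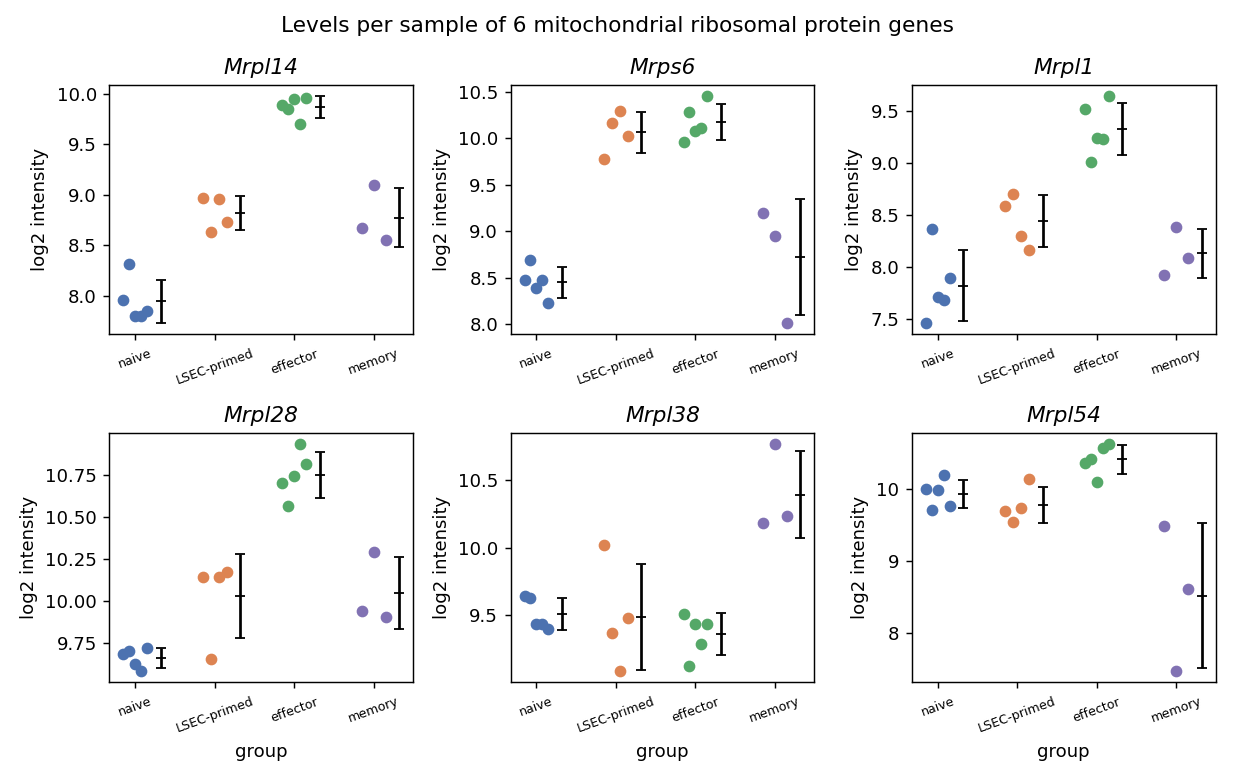
Log2 intensity of Mrpl14, Mrps6, Mrpl1, Mrpl28, Mrpl38 and Mrpl54 in each sample, by group. Points are samples and the bars show the group mean and SD; for Mrps6 the effector and LSEC-primed samples lie together above the naive samples, and for Mrpl14 the effector samples lie above all others.

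By subunit and descent the rises in effector over naive cells were spread over all classes. Among bacterial-type large subunit proteins 16 of 29 rose, and among bacterial-type small subunit proteins 7 of 16. Of the remaining members, most of them found only in mitochondria, 9 of 21 in the large and 5 of 10 in the small subunit rose, and none of any class fell. These remaining members include Mrps18a and Mrps18b, relatives of bacterial S18, and Mrpl47, a relative of bacterial L29. Mrps30 and Mrps18a are counted with the large subunit, where structures place them. The factor-binding stalk of the large subunit holds copies of Mrpl12 on a base of Mrpl10 and Mrpl11, and calls in elongation factors. Mrpl12 rose by 1.01 (SE 0.19, adjusted p = 0.000513) and Mrpl10 by 0.89 (SE 0.13, adjusted p = 5.89e-05), while Mrpl11 differed by 0.35 (SE 0.18, adjusted p = 0.22). Mrpl12 read 8.84, 8.72, 8.94, 9.06 and 8.86 in naive and 9.86, 9.63, 9.81, 10.00 and 10.16 in effector samples, with no overlap.

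Mrps12, which sits at the decoding centre, rose by 0.49 in effector cells (SE 0.12, adjusted p = 0.00638). Mrpl44, a mitochondria-specific protein with a fold like that of RNase III and a human heart disease gene, read 7.24, 7.10, 7.30, 7.47 and 7.60 in naive and 8.24, 8.11, 8.28, 8.67 and 8.47 in effector samples. The ranges did not overlap, and the difference was 1.01 (SE 0.14, adjusted p = 2.9e-05). Mrps22, a mitochondria-specific small subunit protein, read 7.62, 8.36, 7.62, 8.17 and 8.10 in naive and 8.41, 8.53, 8.52, 8.97 and 9.25 in effector samples. The naive and effector ranges came close without overlapping, and the difference was 0.76 (SE 0.17, adjusted p = 0.00299).

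Mrps18a, Mrps18b and Mrps18c descend from the single bacterial S18. Mrps18a, the large subunit copy, rose by 0.43 (SE 0.13, adjusted p = 0.0224) and Mrps18c by 0.55 (SE 0.18, adjusted p = 0.0347) in effector over naive cells. Both calls were thin: without effector sample 6, naive 11 or naive 12 the adjusted p of Mrps18a was 0.0585, 0.0513 and 0.0508. For Mrps18c it was 0.0647 to 0.0981 when any of naive 1, 11, 12 or 13 or effector 6, 8 or 10 was left out. Mrps18b differed by -0.09 (SE 0.15, adjusted p = 0.815). Mrps18b read 9.55, 9.65, 9.63, 10.00 and 9.61 in naive and 9.54, 9.37, 9.35, 9.82 and 9.89 in effector samples, which overlap. Mrpl3, near the site of peptide bond formation, differed by -0.10 (SE 0.11, adjusted p = 0.662) and the mitochondria-specific Mrps34 by -0.11 (SE 0.18, adjusted p = 0.812).

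LSEC-primed cells against naive cells gave 27 members higher, 1 lower and 48 that did not pass, with 10.0% of all named genes called higher and 5.75% lower. The median difference was 0.34 over the members and 0.01 over all named genes, and 3 members reached 2-fold. The groups did not overlap for 21 members that were higher and 1 that was lower, where 9.85% and 5.73% of named genes were free of overlap. Of the 57 members above background on all arrays 26 were higher and 1 lower, against 19.3% and 13.0% of the 4282 such named genes. By class, 12 of 29 bacterial-type and 6 of 21 remaining large subunit proteins rose, and 6 of 16 and 3 of 10 of the small subunit. Under median scaling of the arrays 1 of 76 was called, at a median difference of 0.42. Calls over all named genes also fell under that scaling, from 15.8% to 5.23%.

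Behind Mrps6, the largest rises over naive cells were those of Mrps16, Mrpl27 and Mrpl17. Mrps16, the relative of bacterial S16 in the body of the small subunit, read 8.90, 9.01, 8.85, 8.80 and 8.79 in naive and 9.87, 9.75, 10.14 and 10.04 in LSEC-primed samples. Effector samples read 9.70, 9.72, 9.52, 9.82 and 9.97, and memory samples 9.54, 8.84 and 8.92. Both cocultured groups were clear of the naive range, and the LSEC-primed difference was 1.08 (SE 0.13, adjusted p = 2.18e-05). Mrpl27, whose bacterial relative reaches the peptidyl transferase centre, read 7.90, 8.60, 8.19, 8.46 and 8.66 in naive and 9.54, 9.66, 9.35 and 9.15 in LSEC-primed samples. Its effector samples, at 8.80, 9.09, 9.29, 9.03 and 8.84, lay above the naive samples and reached into the LSEC-primed range. The LSEC-primed difference was 1.06 (SE 0.16, adjusted p = 0.000177) and the effector one 0.65 (SE 0.15, adjusted p = 0.00341).

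In the stalk, Mrpl10 was higher in LSEC-primed than in naive cells by 0.65 (SE 0.14, adjusted p = 0.00392) and Mrpl12 by 0.72 (SE 0.20, adjusted p = 0.0213). The Mrpl12 call ended without LSEC-primed sample 4 (adjusted p = 0.0718) or 15 (0.0825). Mrps12 was higher by 0.63 (SE 0.13, adjusted p = 0.00282) and Mrpl44 by 0.74 (SE 0.15, adjusted p = 0.0023). Mrpl24, a bacterial-type protein that in bacteria starts large subunit assembly, was the 1 member called lower. It read 10.40, 9.97, 10.26, 10.12 and 9.98 in naive and 9.87, 9.77, 9.72 and 9.73 in LSEC-primed samples, with no overlap. The difference was -0.37 (SE 0.10, adjusted p = 0.0183), and the adjusted p was 0.0508 without LSEC-primed sample 14.

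Set directly against each other, LSEC-primed and effector cells differed in 9 members, of which 2 were higher and 7 lower in LSEC-primed cells, with 9.49% and 8.19% of all named genes called in these directions. The members' 2.63% lay below the first of these and their 9.21% close to the second. Median scaling gave 0 members higher and 2 lower, where 7.75% of all named genes were called in either direction. Cyclic loess gave 2 higher and 13 lower (22.4% of all named genes called), and array weights 2 and 12 (20.4%). The median difference was -0.07 over the members and 0.01 over all named genes. Mrpl14 was lower in LSEC-primed cells by 1.05 on the log2 scale (difference -1.05, SE 0.13, adjusted p = 1.48e-05) and Mrpl1 had a difference of -0.89 (SE 0.17, adjusted p = 0.00162). Mrpl28, a bacterial-type large subunit protein, read 10.14, 9.65, 10.14 and 10.17 in LSEC-primed and 10.70, 10.56, 10.74, 10.93 and 10.81 in effector samples. Naive samples, at 9.68, 9.70, 9.62, 9.58 and 9.72, lay below the effector samples, and LSEC-primed sample 7 lay within their range. The LSEC-primed over effector difference of Mrpl28 was -0.73 (SE 0.11, adjusted p = 0.000172).

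Mrpl18, whose bacterial relative binds a ribosomal RNA that mammalian mitoribosomes lack, read 8.28, 7.52, 7.89 and 7.92 in LSEC-primed and 8.34, 8.32, 8.85, 8.61 and 8.70 in effector samples. The groups did not overlap and came close only at LSEC-primed sample 4, and the difference was -0.66 (SE 0.16, adjusted p = 0.00721). Mrpl48 (-0.54), Mrps10 (-0.50) and Mrpl23 (-0.38) were also called lower, Mrpl23 not without LSEC-primed 14 or 15 or effector 10, 16 or 17 (adjusted p of 0.0522 to 0.085). The 2 members called higher were Mrps34 and Mrpl3. Mrps34 read 10.42, 10.54, 9.99 and 10.36 in LSEC-primed and 10.03, 9.78, 9.41, 9.70 and 9.61 in effector samples, overlapping at 1 sample of each group. Its difference was 0.62 (SE 0.19, adjusted p = 0.0406), and the call ended in 8 of 17 fits that left out 1 array, with adjusted p of 0.0513 to 0.124. These were the fits without naive sample 1, LSEC-primed 4, 7 or 15, or effector 8, 10, 16 or 17. Mrpl3 read 9.51, 9.5, 9.51 and 9.69 against 9.29, 8.86, 9.01, 9.34 and 9.40, a difference of 0.37 (SE 0.11, adjusted p = 0.0311). That call ended without LSEC-primed 4, 7 or 15 or effector 8 or 10, with adjusted p of 0.0539 to 0.0999. A second probe of Mrpl3, above background on 16 arrays, gave -0.24. The third, above background on no array, gave -0.009 and carries no usable value.

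**Figure D4:**
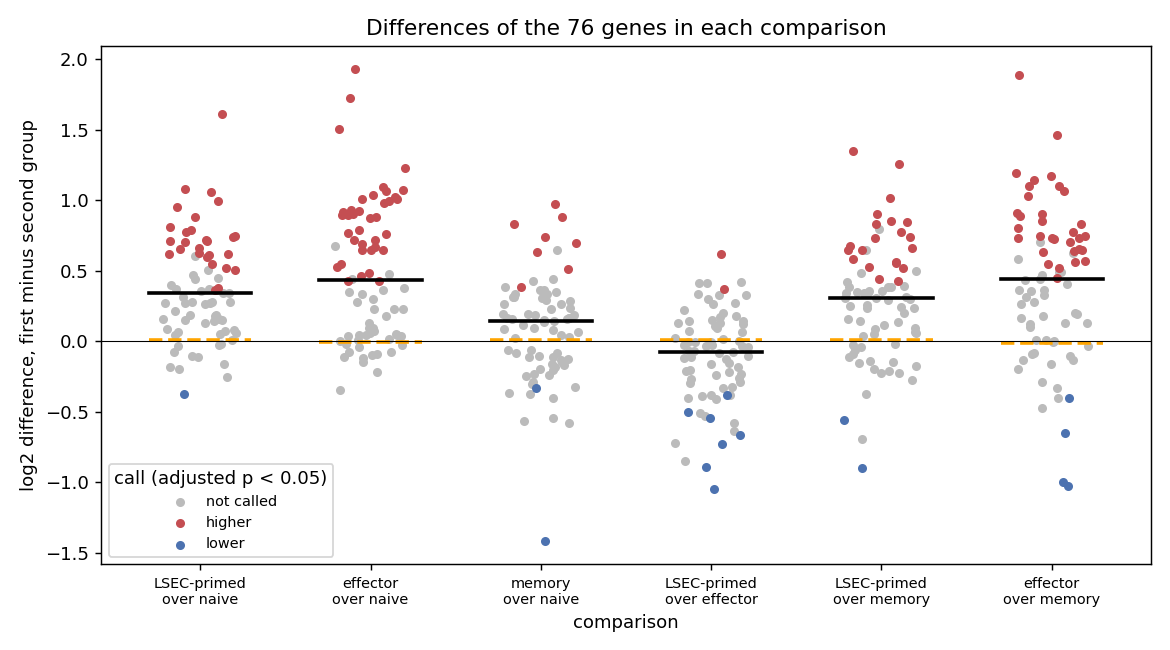
Log2 difference of each of the 76 genes in the 6 comparisons, with 1 point per gene, red where called higher, blue where called lower and grey where not called. The black bar marks the median over the 76 genes and the orange dashed line the median over all named genes; the member median is 0.43 for effector over naive and 0.34 for LSEC-primed over naive, and the 0.14 for memory over naive turns to -0.95 under median scaling of the arrays.

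Memory cells against naive cells gave 8 members higher and 2 lower, with 6.63% and 6.93% of all named genes called in these directions, and 66 members did not pass. In percent this is 10.5 and 2.63 of the members. The median difference was 0.14 over the members and 0.01 over all named genes. Under median scaling of the arrays these were -0.95 and -0.08, with none of the members called higher and 15 lower. Of all 16462 named genes 2334 (14.2%) were called under that scaling, and only 78 of these were higher. That scaling moved the median of all named genes by over 0.1 in the comparisons of cocultured with memory cells, to 0.13 for LSEC-primed and 0.12 for effector over memory. Without the 2 dim memory arrays sample 9 is the only memory sample, and the fit lends it the spread of the other groups. The median difference was then 0.02 over the members and 0.00 over all named genes. Leaving out memory sample 5 alone gave 5 called members in place of 10, and the share of all named genes in that fit is not given here.

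The mitochondria-specific large subunit proteins Mrpl38, Mrpl52 and Mrpl49 were among the 8 that were higher. Mrpl38, part of the central protuberance at the top of the large subunit, read 10.18, 10.76 and 10.23 in memory and 9.64, 9.63, 9.44, 9.44 and 9.40 in naive samples. LSEC-primed samples read 10.02, 9.37, 9.09 and 9.48 and effector samples 9.51, 9.13, 9.44, 9.29 and 9.44. The memory samples stood above all 14 others. The memory over naive difference was 0.88 (SE 0.17, adjusted p = 0.00233), which was 0.72 with an adjusted p of 0.101 without the 2 dim arrays and -0.73 under median scaling.

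Mrpl52 read 11.04, 11.28 and 11.34 in memory and 10.68, 10.37, 10.78, 9.83 and 9.61 in naive samples, a difference of 0.97 (SE 0.29, adjusted p = 0.0388). The groups did not overlap, yet the call ended without naive sample 2, 12 or 13 or memory sample 5 or 9, with adjusted p of 0.0535 to 0.117. With neither dim array it was 1.10 with an adjusted p of 0.222. Mrpl49 read 9.26, 9.82 and 8.91 in memory and 8.37, 8.68, 8.29, 8.84 and 8.77 in naive samples, a difference of 0.74 (SE 0.18, adjusted p = 0.011). Without memory sample 5 it was 0.50 with an adjusted p of 0.0851, without the 2 dim arrays 0.32 with 0.543, and the 3 other probes of Mrpl49 had the opposite sign. Mrpl14 (0.83) and Mrpl44 (0.70, SE 0.16, adjusted p = 0.00805) were also higher, and without the 2 dim arrays their differences were 0.62 and 0.60 with adjusted p of 0.0644 and 0.236.

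Mrpl54, another mitochondria-specific large subunit protein, read 9.48, 7.47 and 8.61 in memory and 10.00, 9.71, 9.99, 10.20 and 9.77 in naive samples. Memory sample 5 was lowest, and under 7.66, the lowest level above background on that array. All 3 memory samples lay below all naive samples and below the LSEC-primed samples at 9.70, 9.54, 9.73 and 10.14. The difference was -1.42 (SE 0.30, adjusted p = 0.00385), and without the 2 dim arrays -1.34 with an adjusted p of 0.00164. Mrps9, the relative of bacterial S9, read 8.96, 9.09 and 9.12 against 9.29, 9.57, 9.35, 9.33 and 9.40, a difference of -0.33 (SE 0.09, adjusted p = 0.0262). The Mrps9 call ended without naive sample 2 (adjusted p = 0.0597), memory 3 (0.0926) or memory 5 (0.0576), and without both dim arrays (0.393).

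Effector cells against memory cells gave 32 members higher and 4 lower, where 14.1% and 11.9% of all named genes were called, with a median of 0.44 over the members and -0.01 over all named genes. With the 2 dim arrays left out, which leaves 1 memory sample, the member median was 0.43. Median scaling gave 66 called members, all higher. It called 28.9% of all named genes, and 4587 of these 4760 were higher. Mrpl54 had the largest difference, 1.89 (SE 0.30, adjusted p = 0.000127), with effector samples at 10.36, 10.41, 10.10, 10.57 and 10.62. This difference includes memory sample 5, where Mrpl54 was not above background. Mrps6 followed with 1.46 (SE 0.20, adjusted p = 3.94e-05) and Mrpl1 with 1.19 (SE 0.19, adjusted p = 0.000148). Mrps10, a bacterial-type protein in the head of the small subunit, read 9.36, 9.52, 9.53, 9.48 and 9.69 in effector and 8.12, 8.48 and 8.43 in memory samples. These groups were well apart, by 1.17 (SE 0.12, adjusted p = 1.41e-06). Without the 2 dim arrays these 4 differences were 1.81, 2.20, 1.26 and 1.10, and each was still called.

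In the stalk, Mrpl10 was higher in effector than in memory cells by 0.80 (SE 0.15, adjusted p = 0.000806). Mrpl12 was higher by 0.77 (SE 0.22, adjusted p = 0.0142, and 0.098 without memory sample 9) and Mrpl11 by 0.75 (SE 0.21, adjusted p = 0.0135, and 0.105 without memory sample 5). Mrps22 was higher by 0.73 (SE 0.20, adjusted p = 0.0122, and 0.0544 without memory sample 9). The 4 members that were lower in effector cells were Mrpl38 (-1.03, SE 0.17, adjusted p = 0.000245), Mrpl52 (1.99-fold, SE 0.29 on the log2 scale, adjusted p = 0.019), Mrpl49 (-0.65, SE 0.18, adjusted p = 0.0139) and Mrpl24 (-0.40, SE 0.11, adjusted p = 0.0117). When the dim arrays were left out, Mrpl38 (-0.87) and Mrpl24 (-0.59) were still called, while Mrpl52 (-1.12, adjusted p = 0.127) and Mrpl49 (-0.23, adjusted p = 0.626) were not. Leaving out 1 memory array ended the calls of Mrpl52 (sample 5 or 9, adjusted p = 0.0587 and 0.057), Mrpl49 (sample 5, 0.115) and Mrpl24 (sample 9, 0.0704).

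LSEC-primed cells against memory cells gave 21 members higher and 2 lower, where 9.58% and 5.9% of all named genes were called, with a median of 0.31 over the members and 0.01 over all named genes. Leaving the 2 dim arrays out, which leaves 1 memory sample, gave a member median of 0.32. Median scaling gave 53 called members, all higher. It called 20.4% of all named genes, and 3273 of these 3361 were higher. Mrps6 was higher by 1.35 (SE 0.21, adjusted p = 0.000393), Mrpl54 by 1.26 (SE 0.31, adjusted p = 0.0114) and Mrpl27 by 0.91 (SE 0.18, adjusted p = 0.0025). Mrpl34, a bacterial-type large subunit protein, read 8.99, 8.47, 9.27 and 9.43 in LSEC-primed and 8.83, 7.24 and 8.00 in memory samples, which overlap. On memory sample 5 neither Mrpl34 nor Mrpl54 was above background. The Mrpl34 difference was 1.02 (SE 0.27, adjusted p = 0.0188), with an adjusted p of 0.114 without memory sample 5 and 0.0569 without LSEC-primed sample 15. These 4 genes were still called without the 2 dim arrays, at 2.08, 1.17, 1.08 and 1.06. Other settings ended 2 of these calls: cyclic loess those of Mrpl54 (0.62, adjusted p = 0.0632) and Mrpl34 (0.55, adjusted p = 0.123), the fit of only the groups compared also both (adjusted p of 0.173 and 0.222), and array weights that of Mrpl34 (0.0669). Without the 2 dim arrays the calls of Mrpl10 (0.56, adjusted p = 0.0269) and Mrpl11 (0.74, adjusted p = 0.0306) ended, at differences of 0.66 and 0.52. Leaving out LSEC-primed 14 or 15 or memory 3 or 9 also ended the Mrpl10 call (adjusted p of 0.0651 to 0.0829), and leaving out LSEC-primed 4 (0.0915) or memory 5 (0.181) that of Mrpl11. Mrpl38 was lower in LSEC-primed cells (-0.90, SE 0.18, adjusted p = 0.00257, and 0.0897 without the 2 dim arrays) and so was Mrpl24 (-0.56, SE 0.11, adjusted p = 0.00294).

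Further probes of the called members that passed the filter were compared with the chosen probe. In effector over naive cells 24 of 31 such probes had the sign of the chosen probe, and 9 of 9 among those above background on all arrays. In LSEC-primed over naive cells these counts were 21 of 27 and 9 of 9, in LSEC-primed over effector cells 9 of 11 and 1 of 1, and in effector over memory cells 23 of 32 and 7 of 7. In LSEC-primed over memory cells they were 15 of 21 and 4 of 5, where the bright second probe of Mrpl13 had the opposite sign. For memory over naive cells 2 of 5 had the same sign, and none of those 5 was above background on all arrays. Mrps31, a mitochondria-specific small subunit protein, shows the pattern: its 3 brighter probes gave 1.07, 1.24 and 0.82 for effector over naive cells, and a probe above background on no array gave -0.06.

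The genes that act with the mitoribosome were followed in 6 lists. Their counts stand against 14.2% of all named genes higher and 12.3% lower in effector over naive cells, and 10.0% and 5.75% in LSEC-primed over naive cells. Of 4 mitoribosome proteins with other names, Chchd1 rose by 0.74 (SE 0.09, adjusted p = 1.31e-05) and Dap3, a small subunit protein that binds GTP, by 0.72 (SE 0.09, adjusted p = 1.21e-05) in effector over naive cells. In LSEC-primed cells they rose by 0.58 and 0.38, and Dap3 was not called without LSEC-primed sample 4 (adjusted p = 0.0568). Of 14 genes listed as translation factors, 6 rose in effector cells (42.9%) and none fell. This list also holds Oxa1l and Letm1, which are not translation factors in the strict sense. Tufm, the elongation factor that delivers transfer RNA, read 9.39 ± 0.19 (SD, n = 5) in naive, 10.21 ± 0.28 (SD, n = 4) in LSEC-primed, 10.47 ± 0.18 (SD, n = 5) in effector and 9.95 ± 0.25 (SD, n = 3) in memory cells. Its differences from naive cells were 1.09, 0.83 and 0.56 for effector, LSEC-primed and memory cells, all called, but that of memory cells was 0.42 with an adjusted p of 0.394 without the 2 dim arrays, and was not called without naive 2 or 11 or memory 3 (adjusted p of 0.0504 to 0.112). Tsfm, its exchange factor, rose by 0.99 (SE 0.17, adjusted p = 0.000203) and the release factor Mtrf1 by 0.65 (SE 0.12, adjusted p = 0.000391) in effector cells.

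In LSEC-primed over naive cells 2 translation factors, Tufm and Mtif2, rose (14.3%) and none fell. Mtif2, the initiation factor that places the first transfer RNA, read 7.71 ± 0.26 (SD, n = 5) in naive, 8.56 ± 0.07 (SD, n = 4) in LSEC-primed, 7.45 ± 0.17 (SD, n = 5) in effector and 8.20 ± 0.48 (SD, n = 3) in memory cells. Over effector cells LSEC-primed cells were higher by 1.11 (SE 0.16, adjusted p = 0.000109). Mtif2 was the 1 gene of the 14 listed (7.14%) called in that comparison, where 17.7% of all named genes were called in either direction. Mrrf, which recycles the ribosome after release, was lower in memory than in naive cells (-0.63, SE 0.20, adjusted p = 0.0444) was above background on 1 of 3 memory arrays, and was not called without the 2 dim arrays (adjusted p = 0.548) or in 10 of 17 fits that left out 1 array (0.0518 to 0.194).

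**Figure D5:**
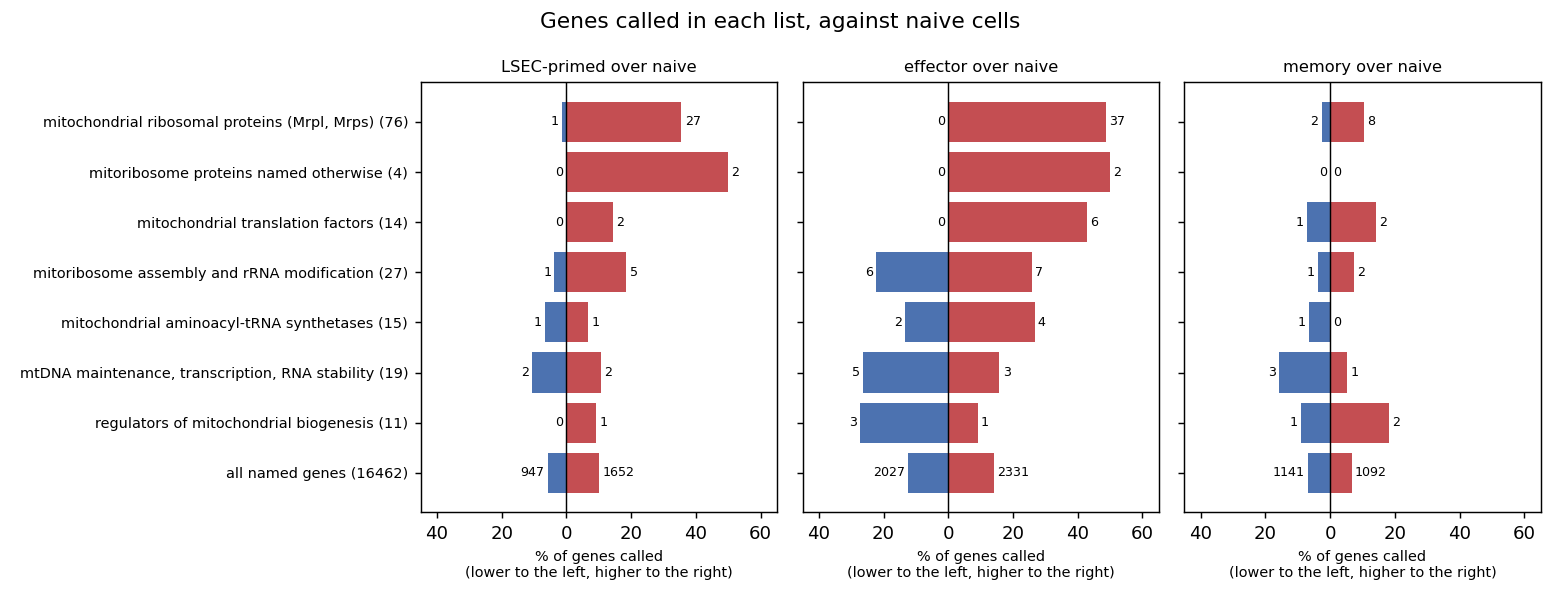
Share of each gene list called higher and lower in the 3 comparisons with naive cells, for the 76 mitochondrial ribosomal proteins, the related lists and all named genes. Bars show percent of measured genes, to the right for higher and to the left for lower, with the counts beside them; in effector over naive cells the members and the translation factors show no lower calls, and the assembly list has 7 higher and 6 lower of 27.

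Of 27 assembly and ribosomal RNA modification genes, 7 rose (25.9%) and 6 fell (22.2%) in effector over naive cells, and 5 rose (18.5%) and 1 fell (3.7%) in LSEC-primed over naive cells. C1qbp (1.11, SE 0.36, adjusted p = 0.0352), the methyltransferase Tfb1m (1.05, SE 0.31, adjusted p = 0.0176) and Mterf4, which brings a methyltransferase to the large subunit (1.03, SE 0.17, adjusted p = 0.000158), rose in effector cells. The C1qbp call ended in 7 of 17 fits that left out 1 array, those without naive 2, 11, 12 or 13 or effector 10, 16 or 17 (adjusted p of 0.0513 to 0.0919), and the Tfb1m call without naive 12 (0.052). In LSEC-primed cells Mterf4 rose by 1.19 (SE 0.18, adjusted p = 0.00019), the helicase Ddx28 by 0.81 and the pseudouridine synthase Trub2 by 0.63. Of 15 mitochondrial aminoacyl-tRNA synthetases, which load transfer RNA, 4 rose (26.7%) and 2 fell (13.3%) in effector cells and 1 rose and 1 fell (6.67% each) in LSEC-primed cells. Ears2, for glutamate, fell by 0.91 in effector (adjusted p = 3.41e-06) and by 0.56 in LSEC-primed cells (adjusted p = 0.00202).

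Of 19 genes of mitochondrial DNA maintenance, transcription and RNA stability, 3 rose (15.8%) and 5 fell (26.3%) in effector cells, and 2 rose and 2 fell (10.5% each) in LSEC-primed cells. The shares that rose are near those of all named genes. Polg2, the accessory subunit of the mitochondrial DNA polymerase, read 9.21 ± 0.22 (SD, n = 5) in naive, 7.40 ± 0.21 (SD, n = 4) in LSEC-primed, 7.29 ± 0.19 (SD, n = 5) in effector and 6.91 ± 0.68 (SD, n = 3) in memory cells. It was higher in naive cells than in each other group, with differences from them of -1.93 for effector (adjusted p = 7.87e-07), -1.81 for LSEC-primed (1.1e-05) and -2.30 for memory cells (2.19e-06, and -1.69 without the 2 dim arrays). Slirp, which stabilises mitochondrial messenger RNA, rose by 1.36 in effector (SE 0.27, adjusted p = 0.00103) and 0.95 in LSEC-primed cells (SE 0.29, adjusted p = 0.0378). The latter call ended without LSEC-primed 4 or 7 or naive 12 or 13 (adjusted p of 0.089 to 0.138). Tefm, the mitochondrial transcription elongation factor, rose by 1.10 in LSEC-primed cells (SE 0.15, adjusted p = 7.16e-05).

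Of 11 regulators of mitochondrial biogenesis, 1 rose (9.09%) and 3 fell (27.3%) in effector over naive cells, and 1 rose (9.09%) in LSEC-primed over naive cells. The shares that rose rest on 1 gene each and stand beside 14.2% and 10.0% of all named genes, so no difference can be read from them. Myc, a growth regulator, was above background on all 5 effector arrays, on 1 of 5 naive arrays and on no memory array, and its effector over naive difference was 0.86 (SE 0.13, adjusted p = 5.9e-05). Ppargc1b, a coactivator of mitochondrial gene expression, fell in effector cells, from 8.13 ± 0.31 (SD, n = 5) in naive to 6.80 ± 0.10 (SD, n = 5) in effector cells, and Pprc1 fell by 0.96 (SE 0.20, adjusted p = 0.0017). Over effector cells, 3 regulators were higher (27.3%) and 1 lower (9.09%) in LSEC-primed cells, where 9.49% and 8.19% of all named genes were called. LSEC-primed cells were higher in Ppargc1b by 1.28 (SE 0.14, adjusted p = 7.46e-06), in the transcription factor Nrf1 by 0.80 (SE 0.18, adjusted p = 0.00496) and in the nuclear receptor Esrra by 0.69 (SE 0.11, adjusted p = 0.00025). Myc was the lower one, with a difference of -0.67 (SE 0.14, adjusted p = 0.00212), and was above background on 2 of 4 LSEC-primed arrays. Esrra was the 1 regulator called in LSEC-primed over naive cells, higher by 0.58 (SE 0.11, adjusted p = 0.00146).

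In memory over naive cells the related lists had 0 to 4 called genes each, where 6.63% of all named genes were higher and 6.93% lower. None of the 4 mitoribosome proteins with other names was called. Of the translation factors 2 rose and 1 fell, of the assembly genes 2 rose and 1 fell, and of the synthetases none rose and 1, Fars2, fell (-0.61, SE 0.08, adjusted p = 9.67e-05). Ddx28 rose by 1.25 and Trub2 by 1.05, while Grsf1, an RNA-binding protein of mitochondrial RNA granules, fell by 0.52. Of the genes of DNA maintenance and transcription 1 rose and 3 fell, and of the regulators 2 rose, Esrra (0.85) and Mlx (0.72), and 1 fell, Gabpa (-0.61). With neither dim array Ddx28 (1.04), Trub2 (0.86), Grsf1 (-0.54), Fars2 (-0.62), Polg2 and Esrra (1.12) were still called. Mlx and Gabpa were not, with adjusted p of 0.357 and 0.559. The translation factors called with all arrays, Tufm, Tsfm and Mrrf, then had differences of 0.42, 0.23 and -0.46. Mtif2 (1.06), Letm1 (-0.53) and the synthetase Wars2 (1.03) were not called with all arrays. Only 1 memory sample is left in this setting, so no counts per list are given.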

How the data were processed

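Total RNA of 17 CD8 T cell samples was labelled as biotin cRNA and hybridised to Illumina mouse bead arrays, per the labels' protocols. The authors deposited a non-normalised table of intensity per probe, per the file headers on a linear scale, and a processed table of intensity in which all arrays share nearly the same values, read from the values themselves. Image analysis software is not given in the sources used here. Of the deposited columns, 3 carried no label and were not used. The deposited tables used here hold no detection p-values.

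In limma 3.58.1 (R 4.3.3) the non-normalised values were background corrected by normexp with an offset of 50, then quantile normalised, then logged to base 2. Probes above the array median on at least 3 arrays were kept (35237 of 45281), and the brightest probe per gene symbol stood for the gene, leaving 23699 features. The platform annotation pairs 34885 probes with 1 symbol, 18 with several and 10378 with none. An array's background level is 3 SD above the mode of its log2 intensities, with the SD taken from the values below the mode.

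One limma model covered all 4 groups, each with its own mean, under eBayes (residual df 13, prior df 3.02). Two-sided p-values were Benjamini-Hochberg adjusted over the features and called under 0.05. The labels name no batch and none was fitted. Values in full are given for up to 4 called members with the largest and up to 4 with the smallest difference per comparison, for members called against the main direction, and for landmark members; Mrpl41 and Mrps36, also landmarks, were not analysed here. From the related lists, up to 3 called genes per comparison are named. The Mrps31 and Mrpl1 probes were chosen after their values were seen. Members, gene lists and the background level were chosen with earlier results of these data known, so no list is independent support. The steps were tested on simulated data. Alternatives covered the scaling (median, cyclic loess, the authors' processed table), the background step, the filter (dropped or stricter), averaging probes, trend and robust moderation, array weights, fitting just the compared groups, and leaving out the 2 dim memory arrays or any 1 sample.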

Additional observations from a re-analysis of the deposited data

Results flagged for a closer look

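In groups of 4 or 5 samples, 26 named members and the median over members were searched for a sample that stands apart from the rest, by Dixon's criterion at the 95% level. Of 81 groups 6 had such a sample, and chance alone gives about 1 in 20. Among LSEC-primed cells, Mrpl3 was highest in sample 15 at 9.69, with the others at 9.5 to 9.51. Mrpl28 was lowest in LSEC-primed sample 7 at 9.65, with the others at 10.14 to 10.17. Mrps12 was lowest in LSEC-primed sample 14 at 9.84, with the others at 10.26 to 10.34. In naive cells, sample 2 was highest for Mrps18a at 8.43 (others 8.14 to 8.19) and for Mrps18c at 10.7 (others 10.04 to 10.15), and sample 12 was highest for Mrpl11 at 7.65 (others 7.33 to 7.41).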

How the results depend on the processing

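The counts of called members that moved by over 1.5 times did so as follows. With arrays scaled to a common median, 1 member was called in LSEC-primed over naive, 24 in effector over naive, 2 in LSEC-primed over effector, 53 in LSEC-primed over memory and 66 in effector over memory cells. The median differences over members then became 0.42, 0.74, -0.26, 1.62 and 1.87, and -0.95 in memory over naive cells. Of all named genes 5.23%, 15.2%, 7.75%, 20.4% and 28.9% were called in the same order, and 14.2% in memory over naive cells. Cyclic loess gave 15 for LSEC-primed over effector (22.4% of all named genes called) and 12 for LSEC-primed over memory (7.81%). Array weights gave 14 (20.4%) and 15 (10%), with 4 for memory over naive (9.23%). Fitting only the groups compared gave 6 for memory over naive (9.26% of all named genes called) and 10 for LSEC-primed over memory (6.05%). Without the 2 dim memory arrays the counts were 1, 14 and 11 for memory over naive, LSEC-primed over effector and LSEC-primed over memory. The cause was not tested, except that the last setting leaves 1 memory sample. Leaving out 1 sample at a time gave 22 to 29 in LSEC-primed over naive, 31 to 38 in effector over naive, 5 to 12 in memory over naive, 6 to 12 in LSEC-primed over effector, 17 to 24 in LSEC-primed over memory and 30 to 39 in effector over memory. Shares of all named genes called in these fits are not given here. Under median scaling signs reversed in memory over naive for Mrpl52 (-0.77), Mrpl38 (-0.73), Mrpl14 (-0.37), Mrpl49 (-0.65) and Mrpl44 (-0.20). They also reversed in LSEC-primed over memory for Mrpl38 (0.85) and Mrpl24 (1.15), and in effector over memory for Mrpl38 (0.91), Mrpl52 (1.03), Mrpl49 (1.09) and Mrpl24 (1.47). With the mean of all probes Mrpl49 in effector over memory was 0.055. Of 53 named differences, the other settings besides leaving out 1 sample gave 500 values with the same call, 71 that lost it and 12 of opposite sign. Leaving out 1 sample gave 851, 50 and none. No paired analysis was possible because the groups share no replicate number.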
